A study of Mus musculus with 6 samples.

Results

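Albumin and 8 other genes for secreted plasma carriers (Alb, Ttr, Afp, Gc, Ahsg, Fetub, Ambp, Hrg and Serpina6) were examined in primary mouse hepatocytes that had lost Foxa2 and in hepatocytes that had kept it. The 9 genes were chosen by their symbols, and all 9 were found among the 34745 genes of the deposited tables. The 6 RNA-seq libraries came from male mice aged 12 weeks, with 3 libraries per group. Every mouse carried floxed Foxa2 alleles, received an AAV8 virus with the hepatocyte-specific TBG promoter, and was then treated with CCl4 at 0.25 ml/kg, injected 2 times a week for 4 weeks, to produce liver fibrosis. The virus was given 2 weeks before CCl4. FOXA2H-KO+CCl4 mice received AAV8-TBG-Cre, which removes Foxa2 from hepatocytes alone, whereas FOXA2f/f+CCl4 mice received AAV8-TBG-Control and kept the gene. Since both groups were given CCl4, the comparison concerns the loss of Foxa2 in the injured liver, and the effect of CCl4 itself was not measured. Cells other than hepatocytes in the FOXA2H-KO liver keep Foxa2, and hepatocytes were collected by collagenase perfusion and low-speed centrifugation, which leaves some of those cells behind.

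The hepatocyte is the source of most plasma proteins, and carriers make up a large share of what it secretes. Albumin holds the oncotic pressure of plasma and binds fatty acids, bilirubin and drugs, and its fetal counterpart alpha-fetoprotein is silenced in the adult liver and returns in regeneration and in hepatocellular carcinoma. FOXA2 belongs to the forkhead factors that bind the enhancers and promoters of liver genes before other factors do, and the Alb enhancer and the Ttr and Afp genes are classic places where FOXA binding was studied. The question asked of these genes was whether their mRNA moved when Foxa2 was removed from adult hepatocytes during injury.

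Several of the carriers are neighbours in the genome (build GRCm38, positions from GENCODE M21). Alb (chromosome 5, 90460897 to 90476602), Afp (90490737 to 90508907) and Afm, the gene of the vitamin E carrier afamin, lie in this order on the plus strand, with 14.1 kb between Alb and Afp and 10.02 kb between Afp and Afm. Gc (89417522 to 89457898), which encodes the vitamin D binding protein and belongs to the same family, lies on the minus strand 1003 kb away. A second row is formed on chromosome 16 by the cystatin-like genes Ahsg (22891277 to 22899449), Fetub (22918334 to 22939778) and Hrg (22951072 to 22961656), all on the plus strand, with Kng2 and Kng1 beyond them. Ambp (chromosome 4, 63143275 to 63154799) and Serpina6 (chromosome 12, 103646630 to 103657212) lie apart, on the minus strand. The exons of 8 of the 9 genes overlapped no other annotated exon, and 2.82% of the exon sequence of Ahsg overlapped Gm30505.

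The promoter sequences were searched for FOXA cores and TATA motifs. RefSeq (GRCm38.p6) gave the 250 bases before 8 starts of 7 of the genes, with 2 starts for Fetub. Neither Ttr nor Serpina6 was in the table. A FOXA core, searched on either strand as TGTTTAC, then as the form TGTTTGC, then as TATTTAC and then as the form TATTTGC, was in 7 of the 8 windows and in 11.9% of all 32851 promoter windows of the same length. TATAAA, searched on the gene strand, was in the windows of Afp and of the first Fetub start and in 7.59% of all windows. No matches of the 2 motifs overlapped each other in these windows. The carriers include genes such as Alb and Afp, where FOXA binding was studied before. The share of windows with a FOXA core therefore partly follows from the choice of genes. The 4 windows below show the neighbours Alb and Afp, Hrg from the second row, and Gc as the window without a FOXA core. They are chr5:90460620-90460869 for Alb, chr5:90490464-90490713 for Afp, chr16:22950822-22951071 for Hrg, all on the plus strand, and chr5:89457899-89458148 on the minus strand for Gc. Each is written 5′ to 3′ on the strand of the gene and ends at the base before the start, and capitals mark the FOXA cores.
Alb: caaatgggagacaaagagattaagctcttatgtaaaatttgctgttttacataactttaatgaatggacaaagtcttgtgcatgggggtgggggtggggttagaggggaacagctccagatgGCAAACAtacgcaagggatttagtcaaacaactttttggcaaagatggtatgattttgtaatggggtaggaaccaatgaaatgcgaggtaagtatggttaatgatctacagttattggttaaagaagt
Afp: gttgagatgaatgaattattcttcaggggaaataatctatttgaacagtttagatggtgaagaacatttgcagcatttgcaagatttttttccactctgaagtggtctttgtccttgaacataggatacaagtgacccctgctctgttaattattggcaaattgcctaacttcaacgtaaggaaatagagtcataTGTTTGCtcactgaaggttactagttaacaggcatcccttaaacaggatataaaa
Hrg: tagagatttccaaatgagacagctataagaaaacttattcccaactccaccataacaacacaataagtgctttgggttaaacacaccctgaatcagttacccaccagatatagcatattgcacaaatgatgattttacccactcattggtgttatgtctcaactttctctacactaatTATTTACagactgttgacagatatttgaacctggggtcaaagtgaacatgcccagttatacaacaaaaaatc
Gc: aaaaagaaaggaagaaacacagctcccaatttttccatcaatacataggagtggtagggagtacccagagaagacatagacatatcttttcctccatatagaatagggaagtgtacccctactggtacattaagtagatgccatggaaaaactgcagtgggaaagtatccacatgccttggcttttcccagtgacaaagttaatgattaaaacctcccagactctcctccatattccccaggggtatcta

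In the Alb window the FOXA core was read on the reverse strand at -128 to -122 from the RefSeq start. In the Afp window it was on the gene strand and nearer to the start, at -55 to -49. The FOXA core of Hrg lay at -72 to -66, and Ahsg had 2 of them, at -100 to -94 and -79 to -73. These are matches of letters in a short window. FOXA2 binding was not measured in these samples, and enhancers such as that of Alb lie outside the windows.

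**Figure D1:**
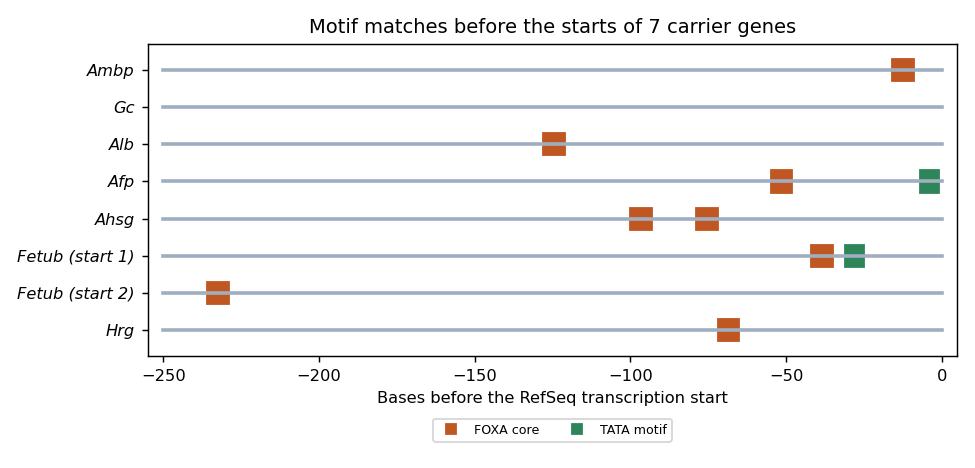
Position of FOXA cores and TATA motifs in the 250 bases before each RefSeq start (horizontal axis, bases from the start) for 7 carrier genes and 8 starts. FOXA cores are present in 7 of 8 windows, and the window of Gc holds neither motif.

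The libraries held between 20983455 and 28327765 counted fragments. Foxa2 itself had 18.99, 13.5 and 16.4 CPM (counts per TMM-scaled library size, edgeR's unit) in the FOXA2f/f libraries 1, 2 and 4 and 1.03, 0.762 and 1.62 CPM in the FOXA2H-KO libraries, a log2 fold change of -3.85 (edgeR adjusted p = 0.0313). It was the only gene called over all 14417 genes tested, at an adjusted p under 0.05 and a fold change of at least 2. Foxa2 stayed called in 1 of the 6 fits that left out 1 library. With library size alone, limma on FPKM or a replicate block 0 genes were called, and DESeq2 called 75. At the same FDR and fold thresholds the authors reported far more genes, so the number called depended on the analysis. All 8 hepatocyte markers were present in every library, with a sum of 22217 to 31096 CPM in FOXA2f/f and 24568 to 29207 CPM in FOXA2H-KO. Of these 8, 6 had fitted values below 0, 2 above, and 0 were called by edgeR. Tdo2 was higher without overlap (log2 fold change 0.74, adjusted p 0.65 by edgeR and 0.00262 by DESeq2). Asgr1 (-0.55) and Serpinc1 (-0.42) were lower without overlap, beside 859 of all 14417 genes lower and 655 higher. FOXA2f/f replicate 4 stood apart in the markers of endothelial cells and macrophages. Its endothelial markers summed to 698 CPM, against 196 and 338 in the other FOXA2f/f libraries and 322 to 433 in FOXA2H-KO, and its macrophage markers (1689 CPM) were above those of the other libraries (386 to 1231 CPM) too. Its stellate markers (2431 CPM) were matched by FOXA2H-KO replicate 1 (2390 CPM).

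The 9 carriers took 12.98%, 13.7% and 12.5% of all counts in the FOXA2f/f libraries 1, 2 and 4 and 12.3%, 13.4% and 13.7% in the FOXA2H-KO libraries. The groups overlapped, with means of 13.1% ± 0.599 and 13.2% ± 0.755 (SD, n = 3 each, exact two-sided permutation p = 0.9, where the smallest possible p is 0.1). Albumin alone made up most of this share, from 9.38% to 11.0% of counts. No carrier was called by edgeR, against 0.00694% of all genes tested. At an unadjusted p under 0.05 only Afp passed among the 9, where 5.17% of all genes did. Afp was also the 1 carrier whose groups did not overlap, beside 10.5% of all genes in either direction and 5.96% in the lower direction. DESeq2, run on the same counts, called 1 of the 9 carriers, again Afp, and 0.489% of the 15326 genes to which it gave an adjusted p.

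When compared per transcript length, the carriers stood in the same order of abundance in every library. Deposited FPKM ran from 36584 to 42989.9 for Alb over the 6 libraries, and Alb ranked first among all genes in each of them. Ahsg, the gene of fetuin-A, followed at 7167 to 8303 FPKM. Ttr, which encodes the thyroid hormone and retinol carrier transthyretin, at 3500.3 to 4455 FPKM and Gc at 3109 to 3941 FPKM came next, and these neighbours did not separate. Below them stood Ambp (1516 to 1782 FPKM), Hrg (435 to 631), Fetub (184 to 254), Serpina6 (27.3 to 147) and Afp (2.69 to 14.6). Apart from Ttr and Gc, each neighbour in this order was separated from the next by its whole range over the libraries. 

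**Figure D2:**
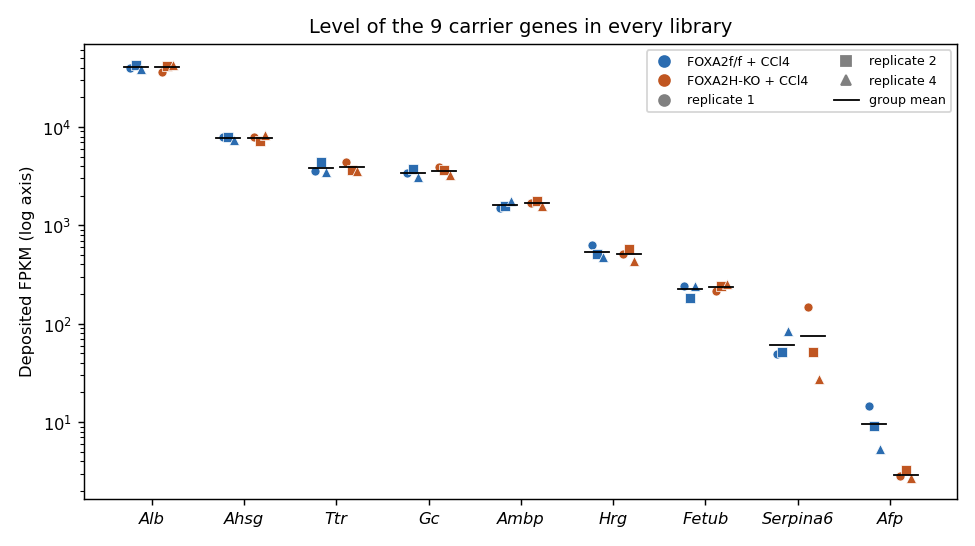
Deposited FPKM (log axis) of the 9 carrier genes in each of the 6 libraries, with 3 FOXA2f/f+CCl4 and 3 FOXA2H-KO+CCl4 libraries and the group means as black lines. The groups overlap for 8 genes, and for Afp the FOXA2H-KO libraries (2.69 to 3.24) sit below the FOXA2f/f libraries (5.37 to 14.6). For Serpina6 the FOXA2H-KO libraries (27.3 to 147) reach beyond the FOXA2f/f libraries (49.6 to 83.4) at both ends.

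Alb mRNA differed between the groups by less than the spread between replicates. It had 113057, 124578 and 89394 CPM in the FOXA2f/f libraries 1, 2 and 4 and 83489.8, 105803 and 111051 CPM in the FOXA2H-KO libraries. The lowest value was that of FOXA2H-KO replicate 1, and the other FOXA2H-KO libraries lay between the FOXA2f/f values. The log2 fold change was -0.12 (SE 0.44, 95% interval -1.14 to 0.90, edgeR adjusted p = 0.993), an interval that still includes a decrease of more than 2-fold. Gc, whose product carries vitamin D metabolites, had 7248, 8391 and 5472 CPM in FOXA2f/f and 6861, 6941 and 6433 CPM in FOXA2H-KO. All FOXA2H-KO values of Gc were inside the FOXA2f/f range, and the log2 fold change was -0.06 (95% interval -0.68 to 0.56).

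Afp, unlike its neighbours, was lower in every FOXA2H-KO library. It had 68.3, 44.6 and 20.7 CPM in the FOXA2f/f libraries 1, 2 and 4 and 10.9, 13.6 and 11.6 CPM in the FOXA2H-KO libraries, from 650 to 1591 counts in the first group and 250 to 339 in the second. The FOXA2f/f libraries were spread over a wide range, with replicate 4 nearest to FOXA2H-KO, while the FOXA2H-KO libraries lay close together. The means were 44.5 ± 23.8 and 12.0 ± 1.42 CPM (SD, n = 3 each), and the log2 fold change was -1.89 (SE 0.39, 95% interval -2.79 to -0.98). With edgeR the unadjusted p was 0.00144 and the adjusted p over all genes 0.579, so Afp was not called, whereas the DESeq2 adjusted p was 0.00126. DESeq2 also called Afp in 5 of the 6 fits without 1 library, and missed it without FOXA2H-KO replicate 4 (adjusted p = 0.0521). Counting error was small beside this spread: the fewest counts, 250, have an exact Poisson interval of 220.0 to 283, which covers counting error only.

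The contrast of Afp with the rest of its cluster did not depend on how libraries were scaled, since a ratio of counts within a library needs no scaling. For each 1000 counts of Alb there were 0.604, 0.358 and 0.231 counts of Afp in the FOXA2f/f libraries and 0.130, 0.128 and 0.104 in the FOXA2H-KO libraries. The groups did not overlap, and the log2 ratio of FOXA2H-KO to FOXA2f/f was -1.62 (exact permutation p = 0.1, the smallest that 3 against 3 can give). Afm, directly downstream of Afp, had 384, 488 and 301 CPM in FOXA2f/f and 359, 409 and 399.8 CPM in FOXA2H-KO, with a log2 fold change of -0.01. Per 1000 counts of Afm there were 178, 91.3 and 68.6 counts of Afp in FOXA2f/f and 30.2, 33.2 and 28.9 in FOXA2H-KO, again without overlap (exact permutation p = 0.1). Gc, by contrast, stood at 61.2 to 67.4 counts per 1000 of Alb in FOXA2f/f and 57.9 to 82.2 in FOXA2H-KO.

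**Figure D3:**
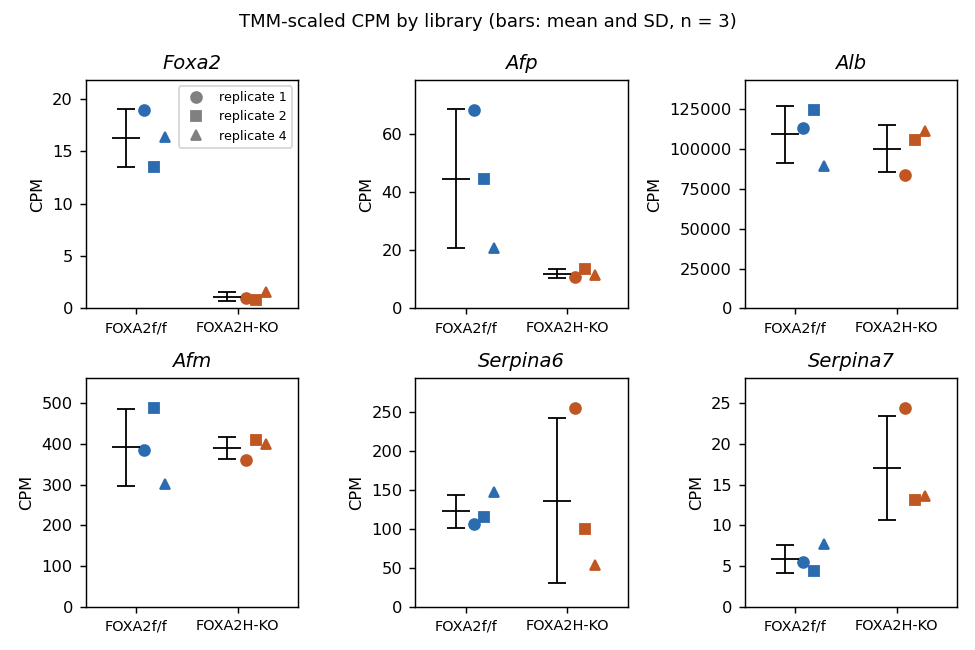
TMM-scaled CPM (vertical axes, linear from 0) of Foxa2, Afp, Alb, Afm, Serpina6 and Serpina7 in each library, with the mean and SD of the 3 libraries per group. Foxa2 and Afp are lower and Serpina7 higher in every FOXA2H-KO library, while Alb, Afm and Serpina6 overlap.

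Markers of cholangiocytes, the bile duct cells, had fitted values of the opposite sign to Afp, although their summed levels overlapped between the groups. Their 5 genes summed to 367, 174 and 231 CPM in FOXA2f/f and 707, 252 and 588 CPM in FOXA2H-KO, with values above 0 for 5 of 5, 0 called, and none at 0 counts in every library. Most of each sum was Spp1, with 353, 164 and 222 CPM in FOXA2f/f and 687, 241 and 573 CPM in FOXA2H-KO. Krt7 and Krt19, at only 0.55 to 3.38 CPM, were higher in every FOXA2H-KO library, as were 655 of all 14417 genes tested. Spp1 and Krt7 had an unadjusted p of 0.0426 and 0.0472 with edgeR, where 5.17% of all genes were under 0.05. The authors stained PanCK in fibrotic livers and reported that the duct reaction was not significantly affected by FOXA2 in hepatocytes. That staining is of whole livers, whereas the values here are RNA of isolated cells. Macrophage and stellate markers were above 0 in 7 of 8 genes each, and their sums overlapped between the groups. In the bulk RNA, fewer cells of a type and less RNA per cell cannot be told apart, and the part of these cells in the level of Afp was not tested. Of the 7 fetal liver genes listed beside Afp, 3 were counted highly enough to be tested. Gpc3, a proteoglycan of fetal liver and liver cancer, had a log2 fold change of -1.42 (edgeR adjusted p = 0.918) and the noncoding RNA H19 one of -1.29 (adjusted p = 0.941). The groups of both overlapped. Gpc3 stood at 8.38 CPM in FOXA2f/f library 1 but at 2.63 and 2.51 CPM in libraries 2 and 4, beside 1.04 to 2.54 CPM in FOXA2H-KO. The remaining 4 of the listed genes (Igf2, Lin28b, Igf2bp1 and Igf2bp3) were too low to test. The 8 proliferation genes had a median log2 fold change of -0.09 and 0 were called. Mcm2, a subunit of the replication helicase, stood at -0.19 and Pcna, the sliding clamp, at -0.14.

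On chromosome 16, the cystatin-like carriers differed by less than the replicate spread as well. Ahsg, whose product keeps calcium phosphate in solution, had 12859.8, 13552 and 9687 CPM in FOXA2f/f and 10278, 10380.1 and 12335 CPM in FOXA2H-KO, and all FOXA2H-KO values were within the FOXA2f/f range. Its log2 fold change was -0.13 (SE 0.29). Fetub, the gene of the protease inhibitor fetuin-B, had 643, 507 and 519 CPM in FOXA2f/f and 458, 572 and 614 CPM in FOXA2H-KO, with groups that overlapped. Its log2 fold change of -0.02 (95% interval -0.46 to 0.42) had the narrowest interval of the 9 carriers. Hrg, the gene of histidine-rich glycoprotein, which binds heparin, heme and plasminogen, had 1203, 1009 and 745 CPM in FOXA2f/f and 794, 984 and 759.8 CPM in FOXA2H-KO. Its log2 fold change was -0.22 (95% interval -0.76 to 0.32), and FOXA2f/f replicate 4 had the lowest value of all.

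The kininogen genes Kng2 and Kng1, next to Hrg and of the same cystatin family, had log2 fold changes of -0.27 and -0.57. Kng1 had 3860, 2665 and 2216 CPM in FOXA2f/f and 1812, 2141 and 1924 CPM in FOXA2H-KO, so that its groups did not overlap although its edgeR adjusted p was 0.941. In the lower direction 5.96% of all genes did not overlap. Per 1000 counts of Ahsg, Fetub gave 49.99, 37.4 and 53.6 counts in FOXA2f/f and 44.6, 55.1 and 49.8 in FOXA2H-KO. Hrg gave 93.5, 74.4 and 76.9 counts on the same scale, against 77.2, 94.8 and 61.6. Both ratios overlapped between the groups (exact permutation p = 0.7 and p = 1).

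Ttr, which lies on chromosome 18 (20665280 to 20674321, plus strand), had 4795, 6237 and 3842 CPM in FOXA2f/f and 4836, 4383 and 4430.1 CPM in FOXA2H-KO. The FOXA2H-KO libraries were close together and lay inside the FOXA2f/f range. The log2 fold change was -0.12 (SE 0.26, 95% interval -0.74 to 0.49, edgeR adjusted p = 0.992). Rbp4, the retinol binding protein that travels in plasma bound to transthyretin, had a log2 fold change of -0.08. Its ratio to Ttr was 421, 467 and 398 counts per 1000 in FOXA2f/f and 348, 502 and 498 in FOXA2H-KO, which overlapped (exact permutation p = 0.8).

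Ambp encodes a precursor that is cut into alpha-1-microglobulin, a heme and radical scavenger, and bikunin, the light chain of the inter-alpha-trypsin inhibitors. It had the smallest spread within groups of the carriers, with 2739, 2994 and 2636 CPM in FOXA2f/f and 2494, 2873 and 2599 CPM in FOXA2H-KO. Its spread within groups was lower than that of most genes tested (percentile 6.57), and its log2 fold change was -0.07 (95% interval -0.54 to 0.40). The heavy chains that are joined to bikunin come from the Itih genes. Itih1 had 581, 651 and 598 CPM in FOXA2f/f and 455, 453 and 476 CPM in FOXA2H-KO, and the groups did not overlap. Its log2 fold change was -0.40 (SE 0.15) with an unadjusted p of 0.0288 and an edgeR adjusted p of 0.894, so it was not called. Against 1000 counts of Ambp, Itih1 gave 212, 217 and 227 counts in FOXA2f/f and 182, 158 and 183 in FOXA2H-KO, without overlap (exact permutation p = 0.1). Itih2, Itih3 and Itih4 overlapped on this ratio, with log2 ratios of FOXA2H-KO to FOXA2f/f of 0.08, -0.17 and -0.22. Their log2 fold changes from edgeR were -0.00149, -0.26 and -0.30. In CPM, Itih4 was lower in every FOXA2H-KO library (1854 to 2122, against 2206 to 2681 in FOXA2f/f; edgeR adjusted p = 0.983).

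Serpina6, which encodes corticosteroid binding globulin, the plasma carrier of glucocorticoids, had the widest spread within groups of the 9 carriers. It had 107, 115 and 147 CPM in FOXA2f/f and 256, 100.3 and 54.0 CPM in FOXA2H-KO. The FOXA2H-KO libraries held both the highest and the lowest value, with replicate 1 at the top and replicate 4 at the bottom. This spread (SD 0.82 on the log2 scale) stood at percentile 93.8 of the genes tested, and the log2 fold change was 0.15 (SE 0.49, 95% interval -0.9995 to 1.30). Without FOXA2H-KO replicate 1 the fitted value turned to -0.68 and the groups no longer overlapped. Under that omission 18.1% of all genes did not overlap.

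**Figure D4:**
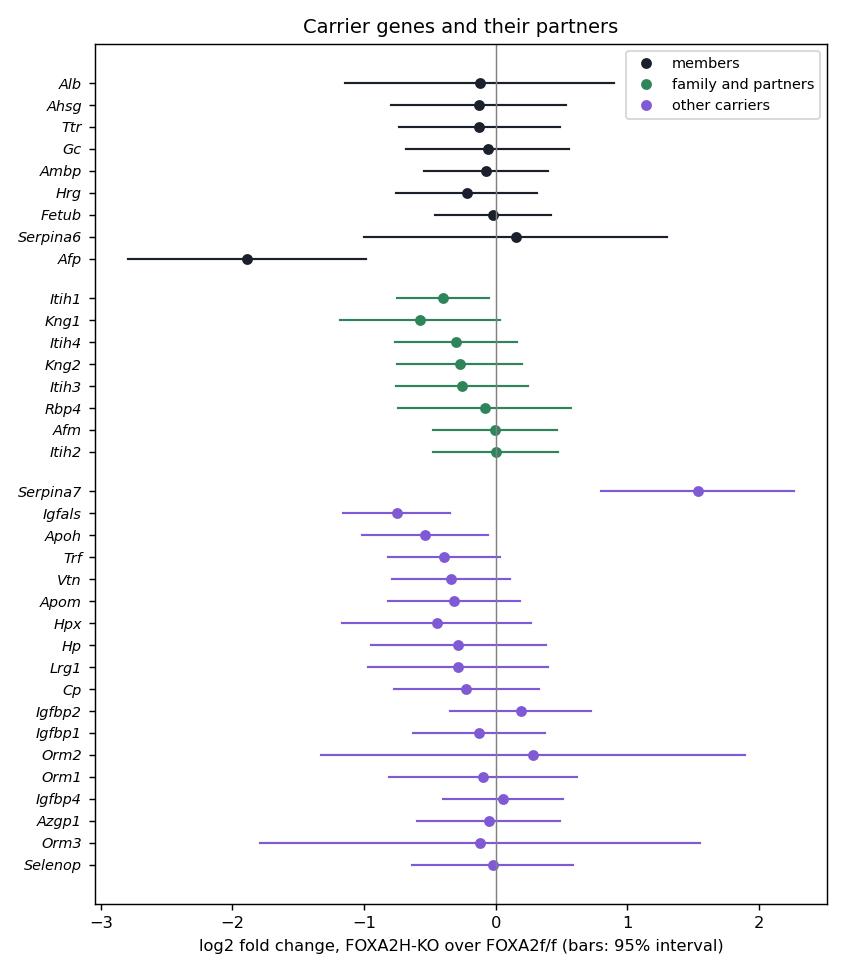
Fitted log2 fold change (FOXA2H-KO over FOXA2f/f, horizontal axis) with 95% intervals for the 9 carriers, 8 family members and partners, and 18 other plasma carriers. The interval of Afp (-2.79 to -0.98) lies below 0 and that of Serpina7 (0.80 to 2.27) above 0, and those of Igfals (-1.16 to -0.34), Apoh (-1.02 to -0.06) and Itih1 (-0.75 to -0.05) also lie below 0.

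Serpina7, the thyroxine-binding globulin gene after which the TBG promoter is named and a relative of Serpina6, was the 1 gene that was higher in every FOXA2H-KO library among the further plasma carriers tested. It had 5.46, 4.39 and 7.72 CPM in FOXA2f/f and 24.4, 13.1 and 13.6 CPM in FOXA2H-KO. The log2 fold change was 1.54 (SE 0.32), with an unadjusted p of 0.0014 and an edgeR adjusted p of 0.579, while the DESeq2 adjusted p was 0.00302. Per 1000 counts of Serpina6 it gave 51.0, 37.99 and 52.5 counts in FOXA2f/f and 95.4, 131 and 253 in FOXA2H-KO, without overlap (exact permutation p = 0.1). Igfals, the subunit that keeps insulin-like growth factors in the large plasma complex, had 38.5, 52.3 and 43.3 CPM in FOXA2f/f and 24.6, 23.3 and 31.8 CPM in FOXA2H-KO. Its groups did not overlap, with a log2 fold change of -0.75 and an adjusted p of 0.607 by edgeR and 0.072 by DESeq2. Of the 20 listed carriers, 18 could be tested, 14 had values below 0 and 4 above, 0 were called by edgeR and 1 (Serpina7) by DESeq2, and A1bg and Shbg were too low. Without overlap, 4 were lower (Igfals, Apoh, Trf and Vtn) and 1 higher. Over all 14417 genes tested, 859 were lower and 655 higher without overlap.

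As a group, the 9 carriers had a median log2 fold change of -0.12, with 8 below 0, against a median of -0.01 over all genes. The 8 family members and partners had a median of -0.27, with 8 of 8 below 0 and 3 (Itih1, Itih4 and Kng1) lower without overlap, as were 5.96% of all genes. These directions depended on the scaling, and fitted values close to 0 have no fixed sign. With library size alone the median of all genes moved to 0.10, 2 of the 9 carriers (Afp and Hrg) and 5 of the 8 partners remained below 0, and Alb was at 0.00584. On that scaling 11 of the 18 other carriers, 3 of the 11 regulators, 8 of the 13 ligand handling genes, 11 of the 14 acute phase genes and 3 of the 8 proliferation genes described here were below 0. Some lists share genes, so their counts are not separate evidence. Hp, Hpx, Cp, Orm1 and Orm2 are both other carriers and acute phase genes, and Itih4 is both a partner and an acute phase gene. Asgr1 (ligand handling) and Hnf4a (regulators) are also hepatocyte markers. Afp was lower under every setting tried, from -2.23 to -1.35, and its groups did not overlap in any of them. Leaving out FOXA2f/f replicate 4, the library with the highest endothelial and macrophage markers, left Alb, Gc, Ahsg and Hrg lower in every FOXA2H-KO library as well as Afp. In that comparison of 2 against 3 libraries, 18.4% of all genes were lower without overlap, the 9 carriers had a median of -0.25, and 0 were called by edgeR. The endothelial, macrophage and stellate markers were then above 0 in 8 of 8 genes each, with median log2 fold changes of 0.56, 0.99 and 0.77, and the part of these cells in the carriers' values was not tested.

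**Figure D5:**
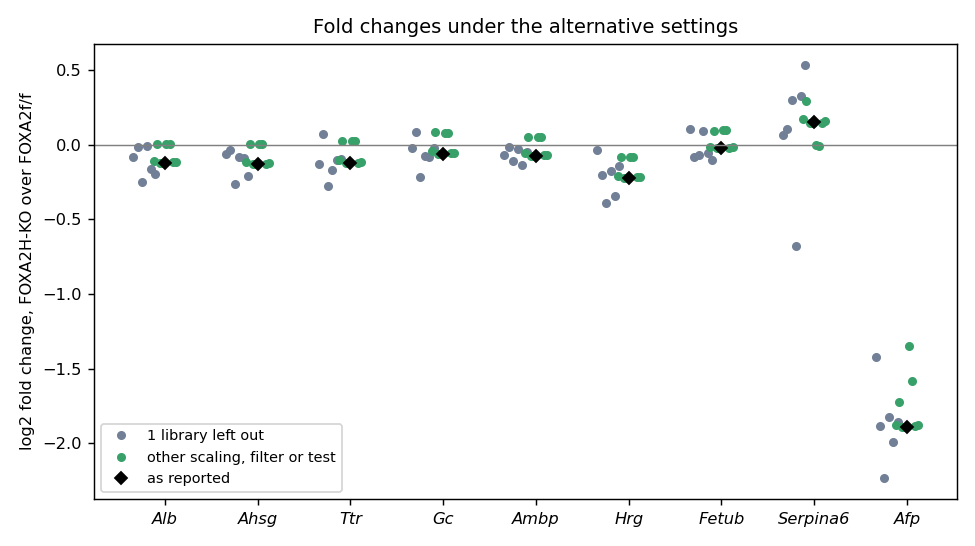
Fitted log2 fold change (vertical axis, FOXA2H-KO over FOXA2f/f) of the 9 carriers as reported (black) and under alternative settings, with fits that leave out 1 library in grey and other scalings, filters and tests in green. Afp stays between -2.23 and -1.35, the 7 abundant carriers lie between -0.39 (Hrg) and 0.11 (Fetub), and Serpina6 ranges from -0.68 to 0.54. The fit with a replicate block is not drawn.

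Among the liver factors known to act on these genes, Foxa2 alone was called. Of 11 regulators tested, 5 had values below 0 and 6 above, on the TMM scaling. Its paralogs Foxa1 and Foxa3 stood at 0.13 and 0.10, and Hnf4a at -0.06. Zbtb20, a zinc finger repressor of Afp after birth, had 153, 187 and 166 CPM in FOXA2f/f and 196, 217 and 274 CPM in FOXA2H-KO. Its groups did not overlap, with a log2 fold change of 0.44 (edgeR adjusted p = 0.918). Zhx2, the other postnatal repressor of Afp, had 14.6, 14.4 and 14.5 CPM in FOXA2f/f and 15.4, 16.4 and 15.8 CPM in FOXA2H-KO, also without overlap, and stood at 0.13 (edgeR adjusted p = 0.983). These 2 of the 11 regulators were higher without overlap, beside 655 of all 14417 genes tested. The part of either repressor in the level of Afp was not tested.

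Among genes that receive the carriers or their ligands, the smallest p belonged to the subunits of the asialoglycoprotein receptor, which clears desialylated plasma glycoproteins in the hepatocyte. Asgr2 and Asgr1 had log2 fold changes of -0.46 and -0.55, unadjusted p of 0.0102 and 0.0235 and edgeR adjusted p of 0.762 and 0.843. Both were lower without overlap, as were 5.96% of all genes, and 5.17% of all genes had an unadjusted p under 0.05. Of the 13 genes tested out of 15 for ligand handling, 9 were below 0, 4 above and 0 called. Fcgrt, the receptor chain that protects albumin from breakdown, stood at -0.04, and its partner B2m at 0.18. The positive acute phase genes, which rise in inflammation while albumin falls, had a median of -0.39 over 14 tested, with 12 below 0 and 0 called. Lbp, which binds lipopolysaccharide, stood at -0.76 (edgeR adjusted p = 0.918) and the fibrinogen chain Fgg at -0.57 (edgeR adjusted p = 0.96). The groups of both overlapped, and 1 of the 14 (Itih4) was lower without overlap, beside 5.96% of all genes. FOXA2f/f replicate 1 had the highest value of all libraries for each of the 14 genes. Lbp, for example, had 147, 63.2 and 99.3 CPM in the FOXA2f/f libraries 1, 2 and 4 and 49.1 to 71.0 CPM in FOXA2H-KO.

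The carriers differed in which genes resembled them over the 6 libraries, measured as the root mean square difference of log2 CPM profiles centred on their own means. Alb was nearest to Ahsg among the carriers (0.0973), and Ttr and Gc were nearest to each other (0.0741). Afp had no close carrier, since its nearest, Hrg, was at 0.822, and Serpina6 had none either (Ttr, 0.689). Among all genes with a mean of at least 10 CPM, Pgm1 (0.0155), Ankrd28 (0.0357) and Acp1 (0.0363) were closest to Alb. Efna1 (0.375), Aacs (0.394) and Gnat1 (0.400) were closest to Afp, each lower in every FOXA2H-KO library, with log2 fold changes of -1.78, -1.28 and -1.22. Since these genes were picked for likeness to Afp over the same libraries, their direction largely follows from that choice. The profiles share the depth and scaling of their libraries, and these distances are a description.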

How the data were processed

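Hepatocyte RNA of 6 samples (poly-A TruSeq libraries, paired-end, no strand marked) was sequenced on an Illumina HiSeq. The submitters' processing notes name CASAVA 1.8, TopHat2 2.1.0, HTSeq, edgeR and build mm10, without an annotation. The authors deposited, for each of 34745 Ensembl genes, raw counts and FPKM values, which equal the counts divided by total count and 1 gene length; these lengths were not those of GENCODE M21, used here for positions alone. The series table held the same values. Gene symbols were given for 34267 genes.

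Counts were analysed with edgeR 4.0.16 in R 4.3.3 (TMM, filterByExpr, quasi-likelihood test without a block, Benjamini-Hochberg adjustment over 14417 genes; biological coefficient of variation 25.3%). A gene was called at an adjusted p under 0.05 and a fold change of at least 2. CPM refer to TMM-scaled library sizes. Standard errors are the log2 fold change divided by the root of F. For single values the exact permutation test of 3 against 3 was used (two-sided). Alternatives were DESeq2 1.42.0, limma 3.58.1 on log2(FPKM + 1) and log2(FPKM + 0.1) over genes with a mean FPKM of at least 1, other scalings and filters, a replicate block, and each library left out. The scripts were tested on simulated counts. Chi-square per degree of freedom between replicates was 38.8 to 134, so none was a duplicate. The sources do not state how many mice gave each library, so p-values measure the spread between libraries.

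The carriers and gene lists were chosen with earlier results of these data known. Named besides the carriers are Foxa2, neighbours and partners, the 2 genes of smallest p per list and the nearest profiles. Foxa1, Foxa3, Hnf4a, Zhx2, Fcgrt, B2m, Apoh, Trf, Vtn, Krt7, Krt19, Spp1, Tdo2 and Serpinc1 were chosen after their values were seen. Hp, Hpx, Cp, Orm1 and Orm2 are named only as genes shared between lists. Ttr and Serpina6 promoters were not used here, and some regulators are not reported here.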

Additional observations from a re-analysis of the deposited data

How the results depend on the processing

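Afp kept its direction in all 15 planned settings (log2 fold change -2.23 to -1.35), with adjusted p from 0.00126 to 1.00, and Hrg stayed below 0 in all 15 (-0.39 to -0.04). The number of carriers called was 0 with edgeR and limma, 1 with DESeq2 (Afp) and 1 at an unadjusted p under 0.05. With DESeq2 and 1 library left out, an alternative chosen after seeing the data, it was 0 to 1, with a log2 fold change of Afp of -2.23 to -1.44 where it was called. The number of carriers without overlap was 1 to 5 when 1 library was left out: 5 without FOXA2f/f replicate 4, 2 without FOXA2H-KO replicate 1 (Afp and Serpina6) and 2 without FOXA2H-KO replicate 2 (Afp and Ambp), where 36.4%, 18.1% and 18.6% of all genes did not overlap.

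Signs of small values turned with the scaling. With library size alone Alb was at 0.00584, Ttr 0.0244, Gc 0.0836, Ahsg 0.00482, Fetub 0.0908 and Ambp 0.0501. With limma on log2(FPKM + 1), Alb was at 0.00308, Ttr 0.0261, Gc 0.0832, Ahsg 0.00332, Fetub 0.0985, Ambp 0.0514 and Serpina6 -0.00228. With a pseudocount of 0.1, Gc was at 0.0833, Fetub 0.0989 and Serpina6 -0.00683, and Alb, Ttr, Ahsg and Ambp did not move at 3 digits. FPKM, like library size alone, is scaled by the total count. With 1 library left out, Fetub ran from -0.103 to 0.11 (above 0 without FOXA2f/f replicate 1 or FOXA2H-KO replicate 1), Ttr from -0.278 to 0.0766 and Gc from -0.214 to 0.0861 (above 0 without FOXA2f/f replicate 2), and Serpina6 from -0.675 without FOXA2H-KO replicate 1 to 0.538 without FOXA2H-KO replicate 4. The cause was not tested. The 9 values were adjusted over all genes in each setting, and apart from Afp with DESeq2 none passed.

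The labels number the libraries 1, 2 and 4 in both groups, but libraries with the same number did not deviate together (correlations of -0.07, 0.03 and -0.23), so the numbers were not taken as pairs. With the replicate block 0 genes and 0 carriers were called, the smallest adjusted p of a carrier was 0.716, and Serpina6 was at -0.13. With 3 libraries per group, intervals as wide as that of Alb (-1.14 to 0.90) limit what can be said of small changes.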
